A study of Mus musculus with 14 samples.

Results

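Thrombospondin 1 (Thbs1) and 8 further genes for secreted matrix-associated proteins (Thbs2, Cyr61, Ctgf, Tnc, Postn, Sparc, Fn1 and Timp1) were examined, 9 of the 35275 genes measured. Thbs1 was chosen by its own FPKM values, because its knockout effects at the 2 housing temperatures were among the most different. The values over the groups that are given for it below are therefore a description without a test. The other 8 genes were listed by family and function. The table lists Thbs1 as ENSMUSG00000040152, Cyr61 as ENSMUSG00000028195 and Timp1 as ENSMUSG00000001131, on chromosomes 2, 3 and X. All 9 were among the 13079 genes that passed the filter on low values, which required 3 or more of the 14 samples to reach 1 FPKM (fragments normalised to transcript length and library depth). Ctgf reached that level in 7 samples and Timp1 in 6, while Cyr61, Fn1, Postn and Sparc reached it in all 14.

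RNA was sequenced from homogenized brown adipose tissue of C57BL/6 mice, 8 weeks old. Controls (LrpprcFF) carried floxed Lrpprc alleles, and knockouts (LrpprcBKO) carried the same alleles with Ucp1-Cre. The recombinase is thus made where the Ucp1 promoter is active, which is mainly in brown adipocytes, and every group carried the floxed alleles. No group with the Cre transgene alone was analysed here. Housing was at room temperature, 22 °C (4 controls, 4 knockouts), or at thermoneutrality, 30 °C (3 controls, 3 knockouts). Each library has its own animal identifier, but no label states that the libraries are separate animals, and p-values measure the spread between these samples.

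Lrpprc encodes an RNA-binding protein that stabilises mitochondrial messenger RNAs. It was expressed at 36.6 ± 11.0 FPKM (SD, n = 4) in room-temperature controls against 11.3 ± 1.35 (SD, n = 4) in their knockouts, and at 29.7 ± 1.23 (SD, n = 3) and 8.03 ± 1.99 (SD, n = 3) at thermoneutrality, with no overlap between genotypes. Library depth, recovered from the steps between low values, was 15.87 to 21.28 M fragments. Brown adipocytes are the labelled cell type, and all 10 listed brown adipocyte markers were detected, with a summed level of 8376 to 20260 FPKM per library. Markers of other cells were detected too, so the libraries represent whole tissue, where more cells of a type and more RNA per cell cannot be told apart. All 6 thermoneutral libraries expressed Xist (9.01 to 18.4 FPKM) and all 8 room-temperature libraries expressed the Y-linked Ddx3y (14.5 to 23.1 FPKM), so housing temperature and sex-linked expression cannot be told apart. Within a temperature both genotypes were alike in these genes.

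Matricellular proteins are secreted into the extracellular matrix, where they act on cell adhesion, growth factors and proteases more than they build structure. Thrombospondin 1 binds the receptors Cd36 and Cd47 and can activate latent TGF-beta, the growth factor best known for driving fibrosis. Cyr61 and Ctgf, also named Ccn1 and Ccn2, are integrin ligands and common readouts of the mechanically regulated coactivators YAP and TAZ. In adipose tissue such genes are mostly made by stromal, vascular and immune cells, and matrix deposition accompanies inflammation and loss of adipocytes.

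Thbs1 was low in 3 of the 4 groups and high in the thermoneutral knockouts. Its FPKM was 0.442, 0.788, 0.796 and 1.25 in the 4 room-temperature controls and 0.721, 1.86, 0.666 and 0.980 in the 4 room-temperature knockouts. It was 1.54, 3.08 and 1.54 in the thermoneutral controls and 22.1, 11.9 and 21.1 in the thermoneutral knockouts. The genotypes overlapped at room temperature, whereas the lowest thermoneutral knockout lay above every other animal. Ordered by group mean, controls at 22 °C were lowest with 0.818 ± 0.330 FPKM (SD, n = 4), followed by knockouts at 22 °C with 1.06 ± 0.554 (SD, n = 4), controls at 30 °C with 2.05 ± 0.888 (SD, n = 3) and knockouts at 30 °C with 18.4 ± 5.59 (SD, n = 3). The ranges of the first 3 of these groups overlapped from each to the next (0.442 to 1.25, 0.666 to 1.86 and 1.54 to 3.08 FPKM). The ratio of mean FPKM between knockouts and controls was 1.29 at 22 °C and 8.94 at 30 °C. These levels rested on an estimated 55.1 to 2855 fragments per library. The level of every gene in every animal is plotted by group.

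**Figure D1:**
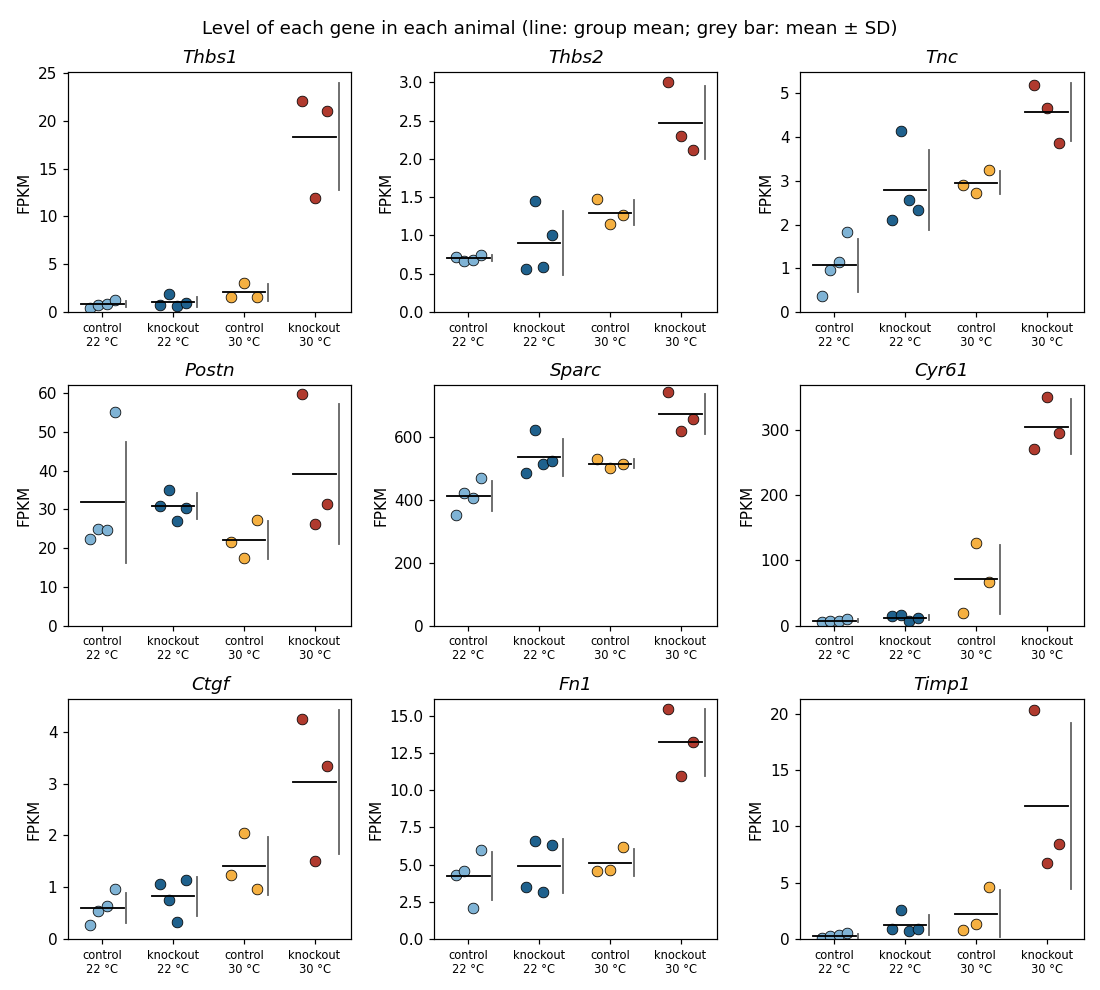
FPKM (vertical axis, from 0) of the 9 genes in each of the 14 animals, by genotype and housing temperature; points are animals, black lines group means and grey bars the mean ± SD. Thbs1, Thbs2, Cyr61, Fn1 and Timp1 have all 3 thermoneutral knockouts above all other animals, while Postn overlaps between all groups. The share of all genes with such a separation was not counted, and Thbs1 was chosen for its pattern over the groups.

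Differences between groups were fitted on log2(scaled FPKM + 1). A median ratio over nuclear genes set the scale of each library, because mitochondrially encoded transcripts took 8.84% to 13.0% of the length-weighted signal in controls and 0.721% to 2.01% in knockouts. Without that step the median gene of all 13079 lay 0.24 higher in knockouts at room temperature and 0.31 higher at thermoneutrality on the log2 scale, against 0.01 and 0.02 with it. Ratios of mean FPKM are therefore larger than the fitted changes, which are also reduced for low genes by the added 1. On the fitted scale the knockout difference of Thbs1 was 0.03 at room temperature and 2.34 at thermoneutrality, a difference of -2.31 between the temperatures.

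Thbs2, the close relative of Thbs1 that binds Cd36 and matrix metalloproteases, stayed low. It lay between 0.661 and 0.744 FPKM in room-temperature controls, 0.568 and 1.45 in room-temperature knockouts, and 1.15 and 1.47 in thermoneutral controls. The 3 thermoneutral knockouts, at 3.01, 2.29 and 2.12 FPKM, were above all other animals. How many of all genes separate in this way was not counted, here or for the genes below. The fitted log2 difference from controls of 0.36 (SE 0.16) did not pass (limma adjusted p = 0.169). At room temperature the log2 difference was 0.00 (95% interval -0.30 to 0.30, adjusted p = 0.994). With FPKM as deposited the thermoneutral difference was 0.59 and passed (adjusted p = 0.0169), beside the shift of the median gene given above. Among the other thrombospondins tested, Thbs3 and Thbs4 had thermoneutral log2 differences of 0.37 (adjusted p = 0.105) and 0.83 (adjusted p = 0.0545).

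Cyr61 had the largest fitted log2 change of the 8 tested genes in thermoneutral knockouts, although the ratio of mean FPKM was larger for Timp1 (5.26 against 4.31). Its FPKM was 5.94, 6.95, 6.93 and 10.8 in room-temperature controls and 14.2, 16.2, 7.37 and 11.4 in room-temperature knockouts. It was 19.4, 126 and 66.8 in thermoneutral controls and 270, 351 and 294 in thermoneutral knockouts. The thermoneutral controls thus differed by a wide margin among themselves, and all 3 lay below the knockouts. The group means were 7.65 ± 2.13 (SD, n = 4), 12.3 ± 3.84 (SD, n = 4), 70.7 ± 53.4 (SD, n = 3) and 305 ± 41.5 (SD, n = 3). Cyr61 rose by 2.09 on the log2 scale (SE 0.48, 95% interval 1.07 to 3.12, adjusted p = 0.0127) at thermoneutrality. At room temperature the log2 difference of 0.34 (SE 0.41) did not pass (adjusted p = 0.741). The thermoneutral value was 1.36 without control 1 and 2.70 without control 2, and passed in both cases. A fit to the thermoneutral libraries alone gave an adjusted p of 0.0804.

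Timp1, a secreted inhibitor of matrix metalloproteases, was the other gene that passed. It was near the detection limit in room-temperature controls, at 0.0553, 0.303, 0.333 and 0.512 FPKM, the lowest resting on an estimated 1.01 fragments. The room-temperature knockouts had 0.907, 2.54, 0.711 and 0.849 FPKM, which lay above all 4 controls. Thermoneutral controls had 0.773, 1.35 and 4.63 FPKM and thermoneutral knockouts 20.3, 6.78 and 8.45. The FPKM ranges did not overlap at either temperature, a separation not counted over all genes, although the spread within each thermoneutral group was wide. Timp1 rose by 1.72 on the log2 scale (SE 0.43, 95% interval 0.81 to 2.64, adjusted p = 0.0180) at thermoneutrality. At room temperature the log2 difference of 0.66 (SE 0.37) did not pass (adjusted p = 0.427). The thermoneutral call was lost without control 1 (1.37, adjusted p = 0.0785), without control 2 (1.59, adjusted p = 0.0741), without knockout 1 (1.28, adjusted p = 0.0845) and in a fit to the thermoneutral libraries alone (adjusted p = 0.0884).

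Promoter sequences of Cyr61 and Timp1 are shown because they are the 2 called genes. They were searched for the letters bound by TEAD, the DNA-binding partner of YAP and TAZ, by AP-1, the Fos and Jun complex, and by other signal-regulated factors. The 250 bases before the start were taken from RefSeq (GRCm38.p6), 5′ to 3′ on the gene's strand, and 6 of the 9 genes had an entry. Cyr61 is at chr3:145649986-145650235 on the minus strand and Timp1 at chrX:20869916-20870165 on the plus strand. Capitals mark the TEAD core GGAATG, searched on both strands, so that CATTCC is its complement.
Cyr61: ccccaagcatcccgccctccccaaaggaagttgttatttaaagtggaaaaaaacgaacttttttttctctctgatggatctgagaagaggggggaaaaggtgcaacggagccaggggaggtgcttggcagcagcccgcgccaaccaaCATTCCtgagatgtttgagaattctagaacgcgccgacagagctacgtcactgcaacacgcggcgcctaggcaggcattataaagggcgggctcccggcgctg
Timp1: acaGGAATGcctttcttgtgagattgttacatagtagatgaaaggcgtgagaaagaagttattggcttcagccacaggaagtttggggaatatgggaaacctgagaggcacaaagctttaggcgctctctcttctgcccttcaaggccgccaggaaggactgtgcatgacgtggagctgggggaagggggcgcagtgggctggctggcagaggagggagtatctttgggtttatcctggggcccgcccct
The core began 103 bases before the start in Cyr61, on the opposite strand, and 247 bases before it in Timp1. Among 32536 promoter windows of the same length 12.6% held that core, so its presence in both is a description and no site of binding. A TATA box (TATAAA) began 25 bases before the start of Cyr61, a feature of 12.3% of windows. The letters of AP-1 (TGANTCA, 6.73% of windows), CRE (TGACGTCA, 1.56%), SMAD (GTCTAGAC, 0.169%), EGR (GCGTGGGCG, 0.541%) and the CArG box (1.48%) were not in either window. None of the 7 motifs overlapped another in these windows.

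Ctgf, the second of the Ccn genes examined and a common marker of fibrosis, remained far below Cyr61 in FPKM. It lay between 0.274 and 0.976 FPKM in room-temperature controls, 0.328 and 1.14 in room-temperature knockouts, and 0.963 and 2.04 in thermoneutral controls. Thermoneutral knockouts had 4.26, 1.51 and 3.33 FPKM, so that knockout 2 lay within the range of the controls. The log2 difference was 0.46 (95% interval -0.12 to 1.04, adjusted p = 0.302) at thermoneutrality and 0.07 (95% interval -0.43 to 0.58, adjusted p = 0.914) at room temperature. None of the 4 other Ccn genes listed (Nov, Wisp1, Wisp2, Wisp3) passed the filter on low values.

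Fn1, fibronectin, a structural matrix glycoprotein on which integrins pull, separated the thermoneutral knockouts from all other animals without passing the test. Such a separation was not counted over all genes. Its FPKM was 4.32, 4.56, 2.07 and 5.97 in room-temperature controls, 3.49, 6.58, 3.17 and 6.31 in room-temperature knockouts, and 4.55, 4.65 and 6.19 in thermoneutral controls. Thermoneutral knockouts had 15.5, 11.0 and 13.3 FPKM, 2.58 times the mean of their controls. The log2 difference was 0.89 (SE 0.29, 95% interval 0.27 to 1.52, adjusted p = 0.0587). It passed in a fit to the thermoneutral libraries alone (adjusted p = 0.0315), with sample weights (0.95, adjusted p = 0.00828) and with FPKM as deposited (1.21, adjusted p = 0.00771). At room temperature the log2 difference was -0.06 (95% interval -0.60 to 0.48, adjusted p = 0.934) and took the other sign, 0.18, with FPKM as deposited.

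Tnc, tenascin C, an adhesion-modulating glycoprotein of wounds and inflamed tissue, had its larger knockout difference at room temperature. Its FPKM was 0.357, 0.965, 1.14 and 1.83 in room-temperature controls and 2.11, 4.15, 2.55 and 2.34 in room-temperature knockouts, with no overlap. The share of all genes without overlap was not counted. Thermoneutral controls had 2.91, 2.71 and 3.24 FPKM and thermoneutral knockouts 5.19, 4.67 and 3.86, with no overlap before scaling. After scaling, knockout 3 at 3.16 lay within the range of these controls, 2.89 to 3.34. The log2 difference was 0.74 (SE 0.19, 95% interval 0.33 to 1.15) at room temperature, which did not pass (adjusted p = 0.0744), and 0.21 (SE 0.22, adjusted p = 0.5996) at thermoneutrality. The room-temperature difference passed without the 2 controls whose identifiers begin with R (1.01, adjusted p = 0.0292), without control 4 (0.89, adjusted p = 0.0422), with sample weights (0.90, adjusted p = 0.00868), with quantile normalization (0.70, adjusted p = 0.0490) and with FPKM as deposited (0.89, adjusted p = 0.0107).

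Postn, periostin, a collagen-binding relative of Tgfbi, ranged from 17.4 to 59.9 FPKM over all animals, and all 4 groups overlapped. Its mean was 31.8 ± 15.5 FPKM (SD, n = 4) in room-temperature controls, where control 4 stood at 55.1, while the knockouts there had 30.8 ± 3.36 (SD, n = 4). It was 22.1 ± 4.91 (SD, n = 3) in thermoneutral controls and 39.2 ± 18.1 (SD, n = 3) in thermoneutral knockouts, where knockout 1 stood at 59.9. The log2 difference was 0.39 (95% interval -0.26 to 1.04, adjusted p = 0.456) at thermoneutrality and -0.23 (95% interval -0.80 to 0.33, adjusted p = 0.716) at room temperature, the latter 0.05 with FPKM as deposited.

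Sparc, osteonectin, a collagen-binding protein that adipose tissue makes in quantity, was the most abundant of the 9 genes per length, at 352 to 743 FPKM. Its ratio of mean FPKM between knockouts and controls was 1.30 at room temperature and 1.31 at thermoneutrality. After scaling the log2 differences were 0.09 (95% interval -0.13 to 0.30, adjusted p = 0.724) and 0.03 (95% interval -0.21 to 0.28, adjusted p = 0.895). The thermoneutral difference depended on the scaling, since it passed with FPKM as deposited (0.38, adjusted p = 0.0360) and with quantile normalization (0.43, adjusted p = 0.0427).

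In all, 2 of the 8 tested genes were called higher in thermoneutral knockouts and none lower, where 7.37% of all 13079 genes were called higher and 5.6% lower (limma, Benjamini-Hochberg adjusted p under 0.05). The log2 differences of all 8 were above 0, with a median of 0.42 against 0.02 over all genes tested. At room temperature none of the 8 was called, where 1.71% of all genes were, and Tnc was the 1 gene with an unadjusted p under 0.05. Their median was 0.08 against 0.01 over all genes. The difference between the 2 knockout effects passed for none of the 8 genes and for 0% of all genes, although 2 of the 8 and 1608 of the 13079 had an unadjusted p under 0.05. Those 2 were Cyr61, whose room-temperature effect was lower by 1.76 (SE 0.63, adjusted p = 0.292), and Fn1, lower by 0.96 (SE 0.38, adjusted p = 0.328). Without thermoneutral knockout 2 this comparison called 120 genes, none of them among the 8. A different response at the 2 temperatures is thus not shown for any of the 8. The fitted knockout differences of all 9 genes are plotted with their intervals.

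**Figure D2:**
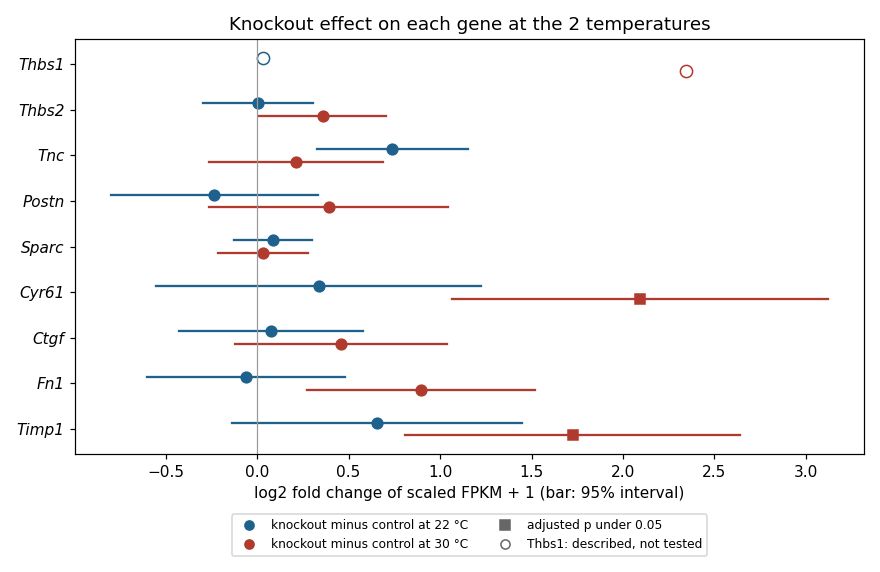
Log2 difference of scaled FPKM + 1 between knockouts and controls (horizontal axis) for each gene at 22 °C (blue) and 30 °C (red); bars are 95% intervals, squares passed an adjusted p of 0.05, and the open circles of Thbs1 were not tested. Cyr61 (2.09) and Timp1 (1.72) at 30 °C are the 2 squares.

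Across temperatures the direction was shared by most of the genes. The log2 difference of room temperature from thermoneutrality was below 0 for 7 of the 8 genes in controls and for all 8 in knockouts. Levels at room temperature were called lower for 3 of the 8 genes in controls, where 18% of all genes were called lower. In knockouts 5 of the 8 were called lower, where 24.7% of all genes were. Cyr61 was lower at room temperature by 2.58 on the log2 scale in controls (SE 0.45, adjusted p = 0.00129) and by 4.34 in knockouts (SE 0.45, adjusted p = 3.66e-05). Timp1 was lower by 1.15 in controls (SE 0.40, adjusted p = 0.0365) and by 2.21 in knockouts (adjusted p = 0.000715). The Timp1 call in controls was lost in 5 of the 7 fits that left out an animal, with the smallest value without thermoneutral control 3 (-0.66, adjusted p = 0.181). Tnc was lower by 0.92 in controls (adjusted p = 0.00473), while its difference of -0.40 in knockouts did not pass (adjusted p = 0.123). Fn1 (-1.10, adjusted p = 0.00456), Ctgf (-0.93, adjusted p = 0.00789) and Thbs2 (-0.72, adjusted p = 0.00176) were called lower in knockouts and not in controls, and the difference between genotypes in that temperature effect passed for none of them. In controls Thbs2 did pass with sample weights (-0.35, adjusted p = 0.0417), with FPKM as deposited (-0.43, adjusted p = 0.0450) and in a fit to the control libraries alone (adjusted p = 0.0458). Ctgf passed there with sample weights (-0.67, adjusted p = 0.0150). All these temperature comparisons carry the sex-linked difference described above, and Timp1 lies on the X chromosome.

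Receptors of these proteins changed in part. In thermoneutral knockouts 4 of the 16 tested receptor genes were called higher and none lower, beside 7.37% and 5.6% of all genes. Their median log2 difference was 0.41 against 0.02 over all genes, and none was called at room temperature (1.71% of all genes). Cd44, the hyaluronan receptor that also binds matrix proteins, rose from 1.55 ± 0.910 FPKM (SD, n = 3) to 6.99 ± 3.20 (SD, n = 3), a log2 change of 1.35 (SE 0.27, adjusted p = 0.00742). Sdc1, a heparan sulphate proteoglycan, rose by 1.18 (adjusted p = 0.0206) and Stab1, a scavenger receptor that takes up Sparc, rose by 1.05 (adjusted p = 0.00916). For Cd36 and Cd47, the 2 receptors of thrombospondin 1 named above, no change was called. Cd36, also the fatty acid transporter of brown fat, was at 326 ± 20.3 FPKM (SD, n = 3) in thermoneutral controls and 425 ± 32.2 (SD, n = 3) in knockouts, with a scaled log2 difference of 0.03 (SE 0.17, adjusted p = 0.937). Cd47 had a log2 difference of 0.42 (SE 0.18, adjusted p = 0.141). It passed with sample weights (0.49, adjusted p = 0.0246) and with FPKM as deposited (0.75, adjusted p = 0.0147). The call of Sdc1 was lost without thermoneutral control 1 (1.10, adjusted p = 0.0729) or control 2 (1.17, adjusted p = 0.0678), and its value was 0.70 without knockout 1. In a fit to the thermoneutral libraries alone neither Cd44 (adjusted p = 0.0568) nor Sdc1 (adjusted p = 0.104) passed.

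Of 17 genes that store, activate and transmit TGF-beta, 4 were called higher and 1 lower in thermoneutral knockouts, beside 7.37% and 5.6% of all genes, so that 1 lower call is near the background. None was called at room temperature (1.71% of all genes). Lrrc32, which tethers latent TGF-beta at the cell surface, rose by 1.98 on the log2 scale (SE 0.23, adjusted p = 0.000294), from 4.52 ± 1.19 FPKM (SD, n = 3) to 26.7 ± 8.09 (SD, n = 3). The ligand Tgfb1 rose by 0.96 (SE 0.23, adjusted p = 0.0174), from 19.7, 24.6 and 24.6 FPKM to 70.9, 47.5 and 57.3. Ltbp2, a latent TGF-beta binding protein of elastic fibres, fell by 1.81 (SE 0.22, adjusted p = 0.000354), from 37.9 ± 3.46 FPKM (SD, n = 3) to 13.4 ± 4.51 (SD, n = 3). Tgfb1 lost its call without thermoneutral control 1 (0.85, adjusted p = 0.0714), knockout 1 (0.80, adjusted p = 0.0842) or knockout 3 (0.96, adjusted p = 0.0541). Tgfb3 did not pass (0.27, adjusted p = 0.601), and Tgfb2 stayed under 1 FPKM in every animal.

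Of 16 genes commonly induced by TGF-beta, 6 were called higher and 1 lower in thermoneutral knockouts, beside 7.37% and 5.6% of all genes, and again the 1 lower call is near the background. The median log2 difference was 0.63. Cdkn1a, a cell cycle inhibitor that p53 also induces, rose by 1.95 (adjusted p = 0.00783), and Tgif1, a repressor of SMAD-driven transcription, by 1.59 (adjusted p = 0.00403). Tgif1 was also the 1 gene of this list called at room temperature (1.16, adjusted p = 0.0344), beside 1.71% of all genes. Ltbp2, Tgfbi and Smad7 stand in more than 1 of the lists, so the lists are not independent.

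Of 15 YAP and TAZ response genes other than Cyr61 and Ctgf, 5 were called higher and none lower at thermoneutrality, beside 7.37% and 5.6% of all genes, with a median of 0.19. Gadd45a, also induced by p53 and by stress, rose by 3.46 (SE 0.47, adjusted p = 0.000862) at thermoneutrality and by 3.28 (SE 0.41, adjusted p = 0.000654) at room temperature. It was the 1 gene of the list called at room temperature, beside 1.71% of all genes. Fjx1 rose by 1.58 (adjusted p = 0.00339) and Myof, a membrane repair protein, by 1.32 (adjusted p = 0.0141). The call of Myof was lost without thermoneutral control 1 (1.18, adjusted p = 0.0590), control 2 (1.23, adjusted p = 0.0600) or knockout 1 (0.95, adjusted p = 0.0589), and in a fit to the thermoneutral libraries alone (adjusted p = 0.0637). The other 10 genes, among them the usual readouts Amotl2 (0.16) and Lats2 (0.19), did not pass.

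Some enzymes that cut or crosslink matrix were higher in thermoneutral knockouts. Of 21 matrix proteases 9 were called higher and none lower, beside 7.37% and 5.6% of all genes, with a median of 0.47; the other 12 did not pass. Mmp12, the macrophage elastase, rose by 3.50 (SE 0.68, adjusted p = 0.00588), from 0.939, 1.32 and 10.03 FPKM to 132, 31.5 and 31.3. Adam8 rose by 2.75 (adjusted p = 0.00213) and Mmp23 by 1.85 (adjusted p = 0.000996). Of 12 crosslinking and processing genes, Loxl1, a lysyl oxidase for elastin, rose by 1.76 (adjusted p = 0.0138) and Pcolce, an enhancer of procollagen cleavage, by 0.64 (adjusted p = 0.0404). The other 10 did not pass. These 2 higher calls among 12 genes stand beside the 7.37% of all genes. Loxl1 lost its call without thermoneutral knockout 1 (1.72, adjusted p = 0.0505) or knockout 3 (1.30, adjusted p = 0.0608), and Pcolce in 5 of the 6 fits that left out an animal (0.45 to 0.88 over the 6, adjusted p up to 0.183). Neither Loxl1 (adjusted p = 0.0534) nor Pcolce (adjusted p = 0.115) passed in a fit to the thermoneutral libraries alone. None of either list was called at room temperature (1.71% of all genes).

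Within the families of the 9 genes, the inhibitors of metalloproteases diverged. Timp2 rose by 1.30 (adjusted p = 0.00752) beside Timp1, while Timp4 fell by 1.24 (adjusted p = 0.0129) and Timp3 did not pass. Tgfbi, the relative of periostin, rose by 0.84 (adjusted p = 0.0106), and Smoc2, a relative of Sparc, fell by 0.78 (adjusted p = 0.0236). Timp4 lost its call without thermoneutral control 2 (-1.03, adjusted p = 0.0637) or knockout 1 (-1.06, adjusted p = 0.0623), and Smoc2 without control 1 (-0.74, adjusted p = 0.0764), control 2 (-0.76, adjusted p = 0.0793) or knockout 1 (-0.49, adjusted p = 0.0727). In a fit to the thermoneutral libraries alone neither Tgfbi (adjusted p = 0.0573) nor Smoc2 (adjusted p = 0.0953) passed, and Smoc2 did not pass with FPKM as deposited (-0.45, adjusted p = 0.134). The thermoneutral differences of all tested genes in these lists are plotted by list.

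**Figure D3:**
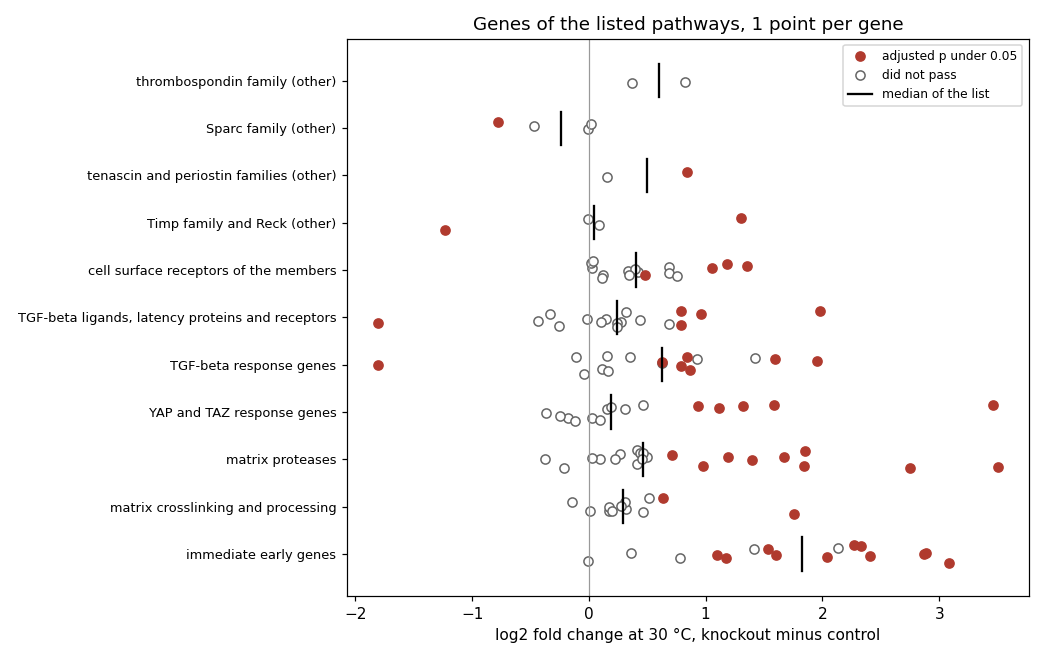
Log2 difference between thermoneutral knockouts and controls (horizontal axis) of each tested gene in 11 lists with a tested gene; filled points passed an adjusted p of 0.05, open points did not, and black bars are list medians. The immediate early genes have the highest median (1.82), and Ltbp2 at -1.81 is the lowest point, drawn in 2 lists.

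Immediate early genes, which are transcribed within minutes of a stimulus and include the Fos, Jun and Egr families, moved with Cyr61, itself known as such a gene. In thermoneutral knockouts 11 of 16 were called higher, beside 7.37% of all genes, and none lower, with a median of 1.82. None was called at room temperature (1.71% of all genes). Atf3 rose by 3.08 (adjusted p = 0.0129), Egr3 by 2.89 (adjusted p = 0.00385) and Fos by 2.87 (adjusted p = 0.0129). Their summed level was 70.5 to 173 FPKM in room-temperature controls, 149 to 187 in room-temperature knockouts and 2057 to 3024 in thermoneutral knockouts. The 3 thermoneutral controls had 253, 1289 and 773 FPKM in the same order of animals as Cyr61 at 19.4, 126 and 66.8. Over deviations from the group means of the 14 animals, Pearson's r with the mean log2 level of the list was 0.90 for Cyr61, 0.44 for Thbs1 and -0.13 to 0.35 for the other 7 genes. Their part in the results of Cyr61 and Thbs1 was not tested. The call of Atf3 was lost without thermoneutral control 1 (2.28, adjusted p = 0.0509) or knockout 1 (2.90, adjusted p = 0.0536), and those of Atf3, Egr3 and Fos in a fit to the thermoneutral libraries alone (adjusted p = 0.0512, 0.0533 and 0.0784).

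Macrophage markers moved with Timp1. Of 12 markers, 11 were called higher in thermoneutral knockouts, beside 7.37% of all genes, with a median of 1.998, and none was called at room temperature (1.71% of all genes). None of the 12 was at 0 in every library. Their summed level was 58.8 to 101 FPKM in room-temperature controls, 127 to 293 in room-temperature knockouts, 147 to 513 in thermoneutral controls and 955 to 2667 in thermoneutral knockouts. The animals with the highest Timp1 in each group (0.512, 2.54, 4.63 and 20.3 FPKM) were those with the highest macrophage sum in that group. Over deviations from the group means, Pearson's r with the list's mean log2 level was 0.97 for Timp1, 0.69 for Postn, 0.65 for Sparc, 0.59 for Fn1, 0.51 for Tnc, 0.49 for Thbs2, 0.47 for Thbs1, 0.29 for Ctgf and 0.27 for Cyr61. The part of macrophage content in these results was not tested.

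**Figure D4:**
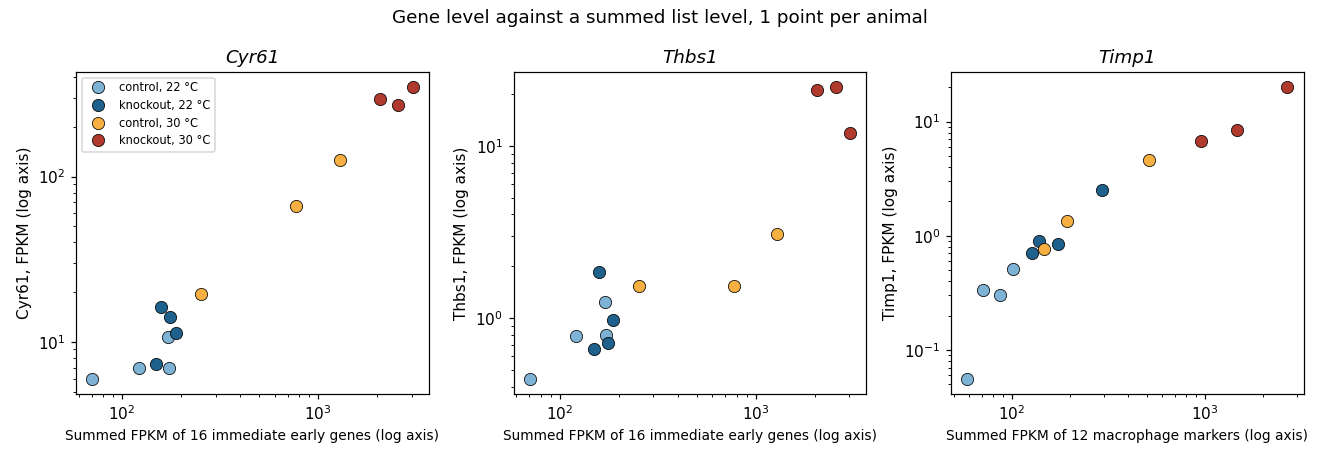
FPKM of Cyr61 and Thbs1 against the summed FPKM of 16 immediate early genes, and of Timp1 against the summed FPKM of 12 macrophage markers, 1 point per animal, all axes logarithmic. The 3 thermoneutral controls rank alike on both axes for Cyr61 and for Timp1, and Thbs1 is highest (11.9 to 22.1 FPKM) in the 3 thermoneutral knockouts.

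Other cells that can make matrix proteins were followed in the same way. Of 11 fibroblast and stromal markers tested, Pdgfra (0.64), Dcn (0.85) and Lum (1.04) were called higher in thermoneutral knockouts and none lower. Of all genes 7.37% were called higher and 5.6% lower. Before scaling, the summed level of the list was 239 to 262 FPKM in thermoneutral controls and 340 to 563 in knockouts. Of 10 endothelial markers Cldn5 (2.33) was called and 9 were not, which is near the share over all genes. Of 10 mural cell markers none was called. Of the platelet markers Pf4 rose (1.15) while Ppbp stayed at 0.146 to 0.721 FPKM in both thermoneutral groups. Brown adipocyte markers were called lower in thermoneutral knockouts in 5 of 10 cases, beside 5.6% of all genes. Their sums before scaling were 12267 to 14974 FPKM in thermoneutral controls and 8376 to 10856 in knockouts. At room temperature 1 of the 10 was called lower, where 1.71% of all genes were called in either direction. Skeletal muscle transcripts differed between animals of the same group, at 19.8 to 12067 FPKM in thermoneutral controls, and none of the 8 markers was called. The part of each of these cell types in the levels of the 9 genes was not tested.

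The genes whose log2 levels were most like those of Thbs1 over the 14 animals, among 8975 genes whose mean reached 5 FPKM in some group, were Lrrc32 (Pearson's r = 0.984), the matrix protein gene Fbln7 (0.974), Scamp5 (0.969), Arid5a (0.969), Psd (0.967), the transcription factor gene Sox9 (0.964), the gelatinase gene Mmp2 (0.961), Sema4c (0.961), Litaf (0.960) and the collagen gene Col16a1 (0.958). All 14 animals share the contrast of 4 groups, which sets most of these values. Over deviations from the group means the same genes had r from 0.51 (Psd) to 0.83 (Lrrc32), and 2 of the 10 stood among the 10 highest by that measure. All 10 shared the order of group means with Thbs1, which a ranking by likeness to Thbs1 favours. Lrrc32, for example, had means of 1.54 and 2.36 FPKM in room-temperature controls and knockouts, and 4.52 and 26.7 at thermoneutrality. Among the 9 genes, Ctgf deviated most closely with Thbs1 within groups (r = 0.77), followed by Sparc (0.69), while Cyr61 (0.46), Timp1 (0.43) and Thbs2 (0.39) did so less closely. Thermoneutral knockout 2, for example, was the lowest of its group for Thbs1 (11.9 FPKM) and Ctgf (1.51 FPKM) and the highest for Cyr61 (351 FPKM).

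Overlapping genes on the opposite strand could add fragments to 5 of the 9 genes, since the use of strand in counting is not given in the sources used here. Those at Thbs1 (Gm29233), Tnc (8030451A03Rik), Fn1 (Apol7d) and Ctgf (Gm15270) were listed at no more than 0.181 FPKM in any library. Syn1, within which Timp1 lies on the opposite strand, reached 1.25 FPKM in thermoneutral knockout 1.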

How the data were processed

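Brown adipose RNA of 14 libraries was sequenced, and the authors deposited FPKM values for 35275 genes, 34490 of which matched a symbol in GENCODE M21; the genome build is mm9, per the submitters' processing notes, and the aligner, counter and use of strand are not given in the sources used here. Depth (15.87 to 21.28 M fragments) was recovered from steps between low values, of which 89.3% to 91.1% per library lay within 0.05 of whole fragments; estimated fragments cover counting error only.

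FPKM were scaled by the median ratio over 15342 nuclear genes above 0 in every library (factors 0.774 to 1.25) and analysed as log2(scaled FPKM + 1). Genes of at least 1 FPKM in at least 3 libraries (13079) were fitted with limma 3.58.1 (R 4.3.3; 4 group means, all libraries, eBayes with trend), two-sided, with Benjamini-Hochberg adjustment over all genes and a threshold of 0.05. On simulated data 100% of genes changed by 2 on the log2 scale and 44.95% of those changed by 1 were called in the thermoneutral comparison (13079 genes), 6.667% of calls being false. The simulation gave every gene the same dispersion between animals, so these rates need not hold for genes with a wider spread, such as Cyr61 and Timp1.

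Named were all 9 genes, up to 3 called genes per list with the largest thermoneutral change, Cd36, Cd47, the TGF-beta ligands, and the 10 genes most like Thbs1 (1 further gene of the rule is not reported here); any other gene was picked with its values known. The genes and lists were chosen with earlier results of these data known. Alternatives covered pseudocount, filter, scaling, libraries in the fit, sample weights and, chosen after seeing the data, scaling over 10021 genes of at least 1 FPKM in every library.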

Additional observations from a re-analysis of the deposited data

Results flagged for a closer look

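In 18 groups of 4 animals (the 9 genes in the room-temperature groups), 2 held an animal far from the rest of its group by Dixon's criterion, which chance alone meets in about 1 group in 20. Postn was 55.1 FPKM in room-temperature control 4, where the nearest animal had 25.1 and the lowest 22.4. Timp1 was 2.54 FPKM in room-temperature knockout 2, where the nearest animal had 0.907 and the lowest 0.711. Groups of 3 were not examined in this way.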

How the results depend on the processing

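With FPKM as deposited, 3248 genes were called in the knockout comparison at room temperature, 2 of them among the 8 tested genes (Tnc and Sparc), 4571 at thermoneutrality with 5 of the 8, 6 in the difference of the effects, and 5 of the 8 for temperature in controls; the calls were 3167 higher and 81 lower at room temperature and 4280 higher and 291 lower at thermoneutrality, beside 107 and 116, and 964 and 733, with scaling. Sample weights gave 817, 3596, 178 and 7535 genes in the same order, with 1 of the 8 at room temperature and 5 for temperature in controls. Without a filter on low values the counts were 100 at room temperature and 9 for the difference. Fits to the compared groups alone called 71 genes at room temperature and 1 of the 8 at thermoneutrality. Quantile normalization called 1 of the 8 at room temperature and 8 genes in the difference, and 1 of the 8 was called without the 2 controls with R identifiers.

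Fits that dropped 1 animal at a time gave 63 to 249 genes and 0 to 1 of the 8 at room temperature, 803 to 2084 genes and 1 to 2 of the 8 at thermoneutrality, and 0 to 120 genes in the difference. The lowest counts came without room-temperature knockout 2 and without thermoneutral control 2, and the 120 without thermoneutral knockout 2. The cause was not tested.

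Small differences changed sign. The Thbs2 difference at room temperature was -0.0303 with a pseudocount of 0.1, -0.0116 with quantile normalization, -0.0300 without the R identifiers and -0.11 to 0.0837 without each animal. At room temperature Postn was 0.0505 and Fn1 0.18 with FPKM as deposited, with ranges of -0.33 to 0.0119 and -0.32 to 0.0788 without each animal, and Ctgf ranged from -0.0283 to 0.21. At thermoneutrality Sparc ranged from -0.0563 to 0.11 and Cd36 from -0.0266 to 0.0829, with -0.0210 for Cd36 under sample weights. The Sparc difference of the effects was -0.00312 with FPKM as deposited, -0.12 with quantile normalization and -0.00825 with scaling over genes of at least 1 FPKM, and ranged from -0.0197 to 0.14. For temperature, Fn1 in controls was 0.0534 without the R identifiers and ranged from -0.27 to 0.11, and Postn in knockouts was 0.00253 with sample weights and ranged from -0.28 to 0.32. No paired analysis was possible because the animal identifiers pair no libraries across groups. Depth limits Timp1 most, whose lowest library held an estimated 1.01 fragments, and the floor of 3 fragments lies above that value.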

Other observations

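The animal that stood highest within a group tended to be the same for different genes. Room-temperature control 4 had the highest FPKM of its group for 9 of the 9 genes (7 of 9 after scaling), room-temperature knockout 2 for 8 (7 after scaling) and thermoneutral knockout 1 for 8 (8 after scaling). Those 3 animals also had the highest summed macrophage markers of their groups, at 101, 293 and 2667 FPKM. Thermoneutral control 3, with the highest macrophage sum of its group at 513 FPKM, was highest for 4 of the 9 genes. Cyr61 was the exception in thermoneutral knockouts, where knockout 2 stood highest for Cyr61 and for the summed immediate early genes (3024 FPKM). This pattern was noticed after the values were seen, and it was not tested.

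Cytokeratins on the list of markers for mesothelium, the cell layer that covers organs and some fat depots, were lower in thermoneutral knockouts. Of the 10 listed markers 4 were tested and 3 were called lower, beside 5.6% of all genes. Another 4 stayed under 1 FPKM in every library, so the cells that made these cytokeratins were not identified. Krt8 fell by 2.33 (SE 0.28, limma adjusted p = 0.000343), from 5.83 to 13.2 FPKM in the 3 thermoneutral controls to 0.601 to 2.89 in the 3 knockouts. Krt18 fell by 2.34 and Krt19 fell by 2.48. The summed mesothelial markers were 17.1 to 48.4 FPKM in thermoneutral controls and 3.12 to 13.0 in knockouts, and at most 2.05 FPKM in every room-temperature library. Cldn5, the tight junction protein of endothelium, rose from 97.3 ± 4.36 FPKM (SD, n = 3) to 631 ± 36.6 (SD, n = 3) at thermoneutrality (2.33 on the log2 scale, SE 0.33, adjusted p = 0.00106), while 9 other endothelial markers did not pass. That is 1 call among 10 markers, near the 7.37% of all genes called higher.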
